A study of Homo sapiens with 20 samples.

Results

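The genes described here are 8 genes of cholesterol synthesis and of its transcriptional control, chosen by symbol: SREBF2, INSIG1, HMGCS1, IDI1, FDFT1, SQLE, DHCR7 and AACS. All 8 were found once among the 60656 rows of the count table, and all 8 were among the 24790 rows that passed the filter on low counts. RNA was sequenced from 20 samples of the human pancreatic cancer line SW1990, in a series described as a mouse model of pancreatic cancer. Each sample had 1 of 4 treatments defined by principles of traditional Chinese medicine, with 5 samples per treatment. The heat-clearing group is labelled clearing Heat and removing Dampness, and the spleen-strengthening group strengthening spleen and regulating qi-flowing. The yin-nourishing group is labelled eliminating heat by nourishing yin, and the blood-activating group activating blood and removing stasis. The sources used here do not give the herbs, doses, durations or host mice, or whether a sample is a tumour or a culture. There was no untreated group among the samples analysed here, so every comparison is between treatments.

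Cells make cholesterol from acetyl-CoA through the mevalonate pathway, and the supply is set by feedback. The product of SREBF2, the transcription factor SREBP2, waits as a precursor in the membrane of the endoplasmic reticulum, held there by INSIG proteins when sterols are plentiful. When sterols fall, the precursor moves to the Golgi, is cut by proteases, and its released part enters the nucleus and switches on the genes of the pathway, INSIG1 and SREBF2 itself among them. HMGCS1 makes HMG-CoA ahead of mevalonate, IDI1 interconverts the pathway's basic isoprene units, FDFT1 joins farnesyl units into squalene, SQLE oxidises squalene, and DHCR7 carries out a closing reduction to cholesterol. AACS activates acetoacetate, a ketone body, for lipid synthesis in the cytosol. Tumour cells of many kinds make or import sterols for new membranes.

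Promoter sequence is shown for SREBF2, and for those genes with an entry whose RNA levels rose and fell together across libraries (below). It is also shown for AACS, whose level did not follow theirs. RefSeq promoters (GRCh38.p14) were listed for 6 of the 8 genes, in 10 entries. SQLE and FDFT1 had no entry. The 250 bases before each RefSeq start were searched on both strands for a sterol regulatory element (TCACNCCAC), for its shorter form (CACNCCAC, which every match of the longer one contains), for the CCAAT box bound by NF-Y, and for the Sp1 letters GGGCGG. Of the 35116 promoters of the same length, 0.883% held the longer element, 4.87% the shorter, 32.0% a CCAAT box and 42.6% the Sp1 letters. Each sequence below runs 5′ to 3′ on the strand of its gene and stops before the first exon base annotated in GENCODE 29, so matches nearer the RefSeq start are not printed. Capitals mark the sterol element, its shorter form, and CCAAT or its reverse complement ATTGG.
SREBF2, chr22:41832855-41833078, plus strand: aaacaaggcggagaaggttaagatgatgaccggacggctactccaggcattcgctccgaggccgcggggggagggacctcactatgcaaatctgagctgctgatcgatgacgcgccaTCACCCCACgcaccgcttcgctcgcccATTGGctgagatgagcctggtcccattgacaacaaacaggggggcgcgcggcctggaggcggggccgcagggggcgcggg
INSIG1, chr7:155297628-155297775, plus strand: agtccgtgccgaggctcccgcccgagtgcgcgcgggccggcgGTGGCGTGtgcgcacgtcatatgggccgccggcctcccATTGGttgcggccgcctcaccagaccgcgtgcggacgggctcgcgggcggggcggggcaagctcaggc
HMGCS1, chr5:43313513-43313662, minus strand: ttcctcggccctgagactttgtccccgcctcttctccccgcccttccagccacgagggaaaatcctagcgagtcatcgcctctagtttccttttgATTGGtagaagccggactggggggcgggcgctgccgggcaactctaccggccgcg
IDI1, chr10:1049171-1049369, minus strand: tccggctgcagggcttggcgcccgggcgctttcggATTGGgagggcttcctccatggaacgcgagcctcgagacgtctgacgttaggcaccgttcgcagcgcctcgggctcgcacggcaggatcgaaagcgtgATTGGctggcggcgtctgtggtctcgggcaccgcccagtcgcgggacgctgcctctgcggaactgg
DHCR7, chr11:71448436-71448643, minus strand: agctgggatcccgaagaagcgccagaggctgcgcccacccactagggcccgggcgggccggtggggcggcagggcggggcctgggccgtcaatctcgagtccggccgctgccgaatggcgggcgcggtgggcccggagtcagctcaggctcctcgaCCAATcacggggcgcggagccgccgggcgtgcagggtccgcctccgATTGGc
AACS, chr12:125065185-125065378, plus strand: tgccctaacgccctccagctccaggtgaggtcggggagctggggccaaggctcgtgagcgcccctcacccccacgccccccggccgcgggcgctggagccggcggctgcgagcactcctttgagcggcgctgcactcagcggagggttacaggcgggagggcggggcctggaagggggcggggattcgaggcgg

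The longer sterol element matched in SREBF2 alone among the 6 genes, 133 bases before the start, with a reverse CCAAT box 106 bases before it. INSIG1 held the shorter form 208 bases before its start and a reverse CCAAT box 170 bases before it. CCAAT boxes numbered 2 over the 2 HMGCS1 entries, 5 over the 3 IDI1 entries and 2 over the 2 DHCR7 entries, and 1 IDI1 entry held the shorter sterol form. In each of these 3 genes 1 entry held no CCAAT box. Only 1 entry per gene is printed above, and for these genes it is one with a CCAAT box. AACS held no CCAAT box and no sterol form, and 3 matches of the Sp1 letters. These matches describe letters in a window. No binding was measured.

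The libraries held 81.7 to 135 M counts each (M for mega). In 5 of them the small nuclear RNA RN7SK took 5.25% to 7.38% of counts, against 1.57% to 3.02% in the other 15. These 5 are called RN7SK-high here, and they are replicates 01, 08 and 09 of the blood-activating group with replicates 01 and 02 of the heat-clearing group. No spleen-strengthening or yin-nourishing library was RN7SK-high, so this difference between libraries is partly confounded with treatment. Epithelial markers were detected in every library, with a summed level of 1961 to 3194 CPM over 8 genes. Markers of other cells were lower, with 27.4 to 75.8 CPM summed over 9 fibroblast genes and 51.1 to 87.2 over 9 myeloid genes. The sums were 8.34 to 24.1 CPM over 7 endothelial genes and 8.13 to 99.1 over 7 hepatocyte genes. Acinar markers ranged from 0.968 to 1044 CPM over 15 genes. In bulk RNA, fewer cells of a type and less RNA per cell cannot be told apart.

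Levels between genes were set side by side per kilobase of the longest coding transcript, in CPM (counts per M counts after TMM scaling) per kilobase. SQLE was highest at 50.1 ± 10.7 (SD, n = 20). FDFT1 followed at 36.9 ± 6.43, IDI1 at 33.9 ± 6.77, DHCR7 at 31.5 ± 6.31 and INSIG1 at 28.7 ± 6.65. SREBF2 stood at 18.6 ± 4.59, HMGCS1 at 14.8 ± 3.44 and AACS at 5.14 ± 0.719. Ranges over the libraries overlapped between every pair of neighbours in this order except the last, since AACS reached at most 6.72 and HMGCS1 was at least 9.46. The order of the middle genes depends on the length used, and with the union of all exons IDI1 and INSIG1 came next after SQLE. Counts behind 1 gene in 1 library ranged from 1120 for AACS to 22672 for SQLE.

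In the annotation of the files' build (hg38, GENCODE 29), SREBF2 lies at chr22:41833079-41907308, INSIG1 at chr7:155297776-155310235, HMGCS1 at chr5:43289395-43313512 and IDI1 at chr10:1039152-1049170. FDFT1 lies at chr8:11795573-11839309, SQLE at chr8:124998497-125022283, DHCR7 at chr11:71428193-71452868 and AACS at chr12:125065379-125143333. An antisense transcript or a long noncoding gene on the other strand overlaps SREBF2, HMGCS1, IDI1, FDFT1 and DHCR7. The libraries kept strand, but the strand setting of the counting is not given in the sources used here, so reads of such partners may be included. Pseudogene rows were low, with 448 counts over 20 libraries for AACSP1 and 115 for IDI1P1. The microRNA gene MIR33A lies inside SREBF2 on the same strand, and its row and that of MIR33B held 0 counts in all 20 libraries. The labels describe no selection of small RNA, so this says nothing of the mature forms.

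SREBF2 did not pass the test in any comparison of treatments. Its level in heat-clearing replicates 01, 02, 03, 07 and 09 was 150.4, 132, 61.2, 106 and 100.3 CPM. In spleen-strengthening replicates 02, 05, 06, 07 and 08 it was 79.0, 67.4, 84.2, 98.9 and 90.4 CPM. The yin-nourishing replicates 01, 04, 05, 07 and 10 gave 98.2, 79.6, 119, 86.2 and 72.0 CPM. These 3 groups overlap, and heat-clearing holds both the lowest and the highest library of all 20. Blood-activating replicates 01, 04, 06, 08 and 09 gave 118, 108, 84.2, 117 and 143 CPM, with the lowest of them inside the spleen-strengthening range. Means were 110.1 ± 33.9, 84.0 ± 11.9, 91.0 ± 18.4 and 114 ± 21.2 CPM (SD, n = 5) in the heat-clearing, spleen-strengthening, yin-nourishing and blood-activating groups. In each treatment the library lowest for SREBF2 also had the largest sum of acinar markers. These were heat-clearing replicate 03 (377 CPM of acinar markers), spleen-strengthening replicate 05 (72.5), yin-nourishing replicate 10 (1044) and blood-activating replicate 06 (913). Any link between them was not tested.

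The adjusted p of SREBF2 over the 4 treatments was 0.390 by edgeR's quasi-likelihood test. Its largest difference between 2 treatments was spleen-strengthening minus blood-activating, with a log2 fold change of -0.44 (SE 0.187, 95% interval -0.83 to -0.05, adjusted p = 0.177 by edgeR). Without the RN7SK-high libraries this value was -0.19, and limma voom, which weights libraries by quality, gave -0.53 with an adjusted p of 0.0259. Heat-clearing minus spleen-strengthening was 0.39 (95% interval 0.00 to 0.78, adjusted p = 0.432 by edgeR), and 0.09 without the RN7SK-high libraries. Both differences thus shrank by more than 1.5 times when those 5 libraries were left out, which leaves 2 blood-activating and 3 heat-clearing libraries.

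INSIG1, which retains the SREBP precursor in the endoplasmic reticulum, did not pass either. It measured 60.4, 75.2, 79.4, 102 and 85.7 CPM in the heat-clearing libraries, in the order of replicates given above, and 86.6, 90.9, 123, 91.6 and 91.8 CPM in the spleen-strengthening ones. The yin-nourishing libraries gave 102, 78.0, 98.0, 83.2 and 76.8 CPM, and the blood-activating ones 64.3, 134, 77.8, 45.0 and 83.6 CPM. All 4 groups overlap, and the blood-activating group alone spans from the lowest library of the 20 to the highest. The largest difference was heat-clearing minus spleen-strengthening, at -0.26 log2 (SE 0.199, 95% interval -0.68 to 0.15, adjusted p = 0.661 by edgeR), and it was -0.12 without the RN7SK-high libraries. Spleen-strengthening minus blood-activating was 0.26 log2 and turned to -0.12 without them. The latter value rests on 2 blood-activating libraries, at 77.8 and 134 CPM.

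Among the 5 enzymes of the pathway, the treatment means differed little. IDI1 measured 101, 103, 97.8, 119 and 122 CPM in the heat-clearing libraries and 92.6, 113, 106, 127 and 116 CPM in the spleen-strengthening ones. It measured 121, 95.5, 173, 108 and 90.7 CPM in the yin-nourishing libraries, and 114, 150.4, 109, 74.3 and 147 CPM in the blood-activating ones. All 4 groups overlap here too, and the widest spread is within the yin-nourishing and blood-activating groups. SQLE had group means of 150 ± 16.0, 148 ± 11.1, 151 ± 50.0 and 145 ± 43.6 CPM (SD, n = 5) in the same order of groups. Its lowest and highest libraries were blood-activating replicate 08 at 90.1 CPM and yin-nourishing replicate 05 at 229 CPM.

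FDFT1 ranged over the 20 libraries from 64.1 to 134 CPM, with group means between 95.7 and 99.5 CPM. DHCR7 ranged from 59.1 to 125 CPM, with group means between 82.7 and 86.9 CPM. HMGCS1 ranged from 33.2 to 85.7 CPM, and its heat-clearing libraries stood within 46.5 to 50.4 CPM. For all 3, blood-activating replicate 08 was the lowest library and blood-activating replicate 04 the highest. Over the 5 enzymes and the 6 pairs of treatments, the largest difference was -0.17 log2 (HMGCS1, heat-clearing minus spleen-strengthening), and the 95% intervals lay within -0.58 to 0.46. Adjusted p-values of these 30 values by edgeR ran from 0.816 to 1.

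AACS, the ketone-body enzyme, had its lowest group mean in the spleen-strengthening libraries and passed in no comparison. It measured 21.6, 17.9, 14.0, 18.1 and 22.3 CPM in the heat-clearing libraries and 14.3, 14.1, 13.8, 16.7 and 14.9 CPM in the spleen-strengthening ones. It measured 16.5, 17.6, 17.0, 16.9 and 19.6 CPM in the yin-nourishing libraries, and 17.4, 17.3, 17.6, 14.4 and 18.7 CPM in the blood-activating ones. The spleen-strengthening group was low except for replicate 07, and it overlaps each of the other groups. Heat-clearing minus spleen-strengthening was 0.35 log2 (SE 0.129, 95% interval 0.08 to 0.62, unadjusted p = 0.0128, adjusted p = 0.327 by edgeR), and 0.30 without the RN7SK-high libraries.

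**Figure D1:**
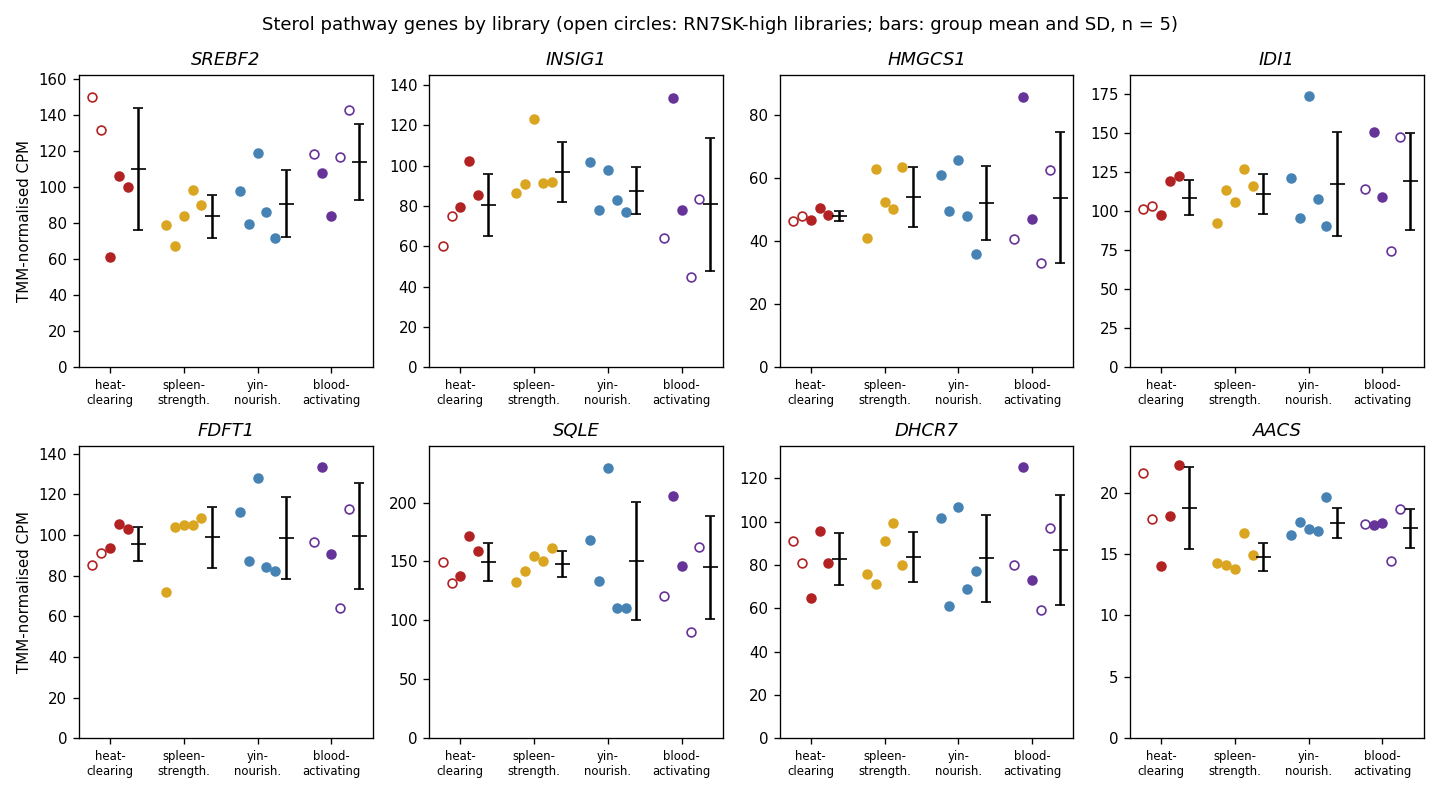
TMM-normalised CPM (y axis, linear from 0) of the 8 genes in each of the 20 libraries, grouped by treatment on the x axis; open circles are the RN7SK-high libraries and the black bar beside each group is its mean and SD (n = 5). The treatment groups overlap for every gene, and the open circles of SREBF2 lie above the filled ones in the heat-clearing column and again in the blood-activating column.

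In all, 0 of the 8 genes passed the test over the 4 treatments, where 0% of all genes did. The same count was 0 of 8 in each of the 6 pairs by edgeR, beside 0.00807% of all genes for heat-clearing minus spleen-strengthening and 0% for each of the other 5 pairs. Of the 48 pair values of the 8 genes, 3 had an unadjusted p under 0.05, namely SREBF2 in the pairs heat-clearing minus spleen-strengthening and spleen-strengthening minus blood-activating, and AACS in heat-clearing minus spleen-strengthening. In those pairs 11.5% and 20.5% of all genes had such a p. Over all genes, 3824 had an unadjusted p under 0.05 in the 4-treatment test by edgeR, while DESeq2 called 1259 and limma voom 2099 after adjustment, with none of the 8 genes among them. Nothing was tested that would show the treatments to act alike on these genes, and the intervals above give the sizes that remain possible.

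**Figure D2:**
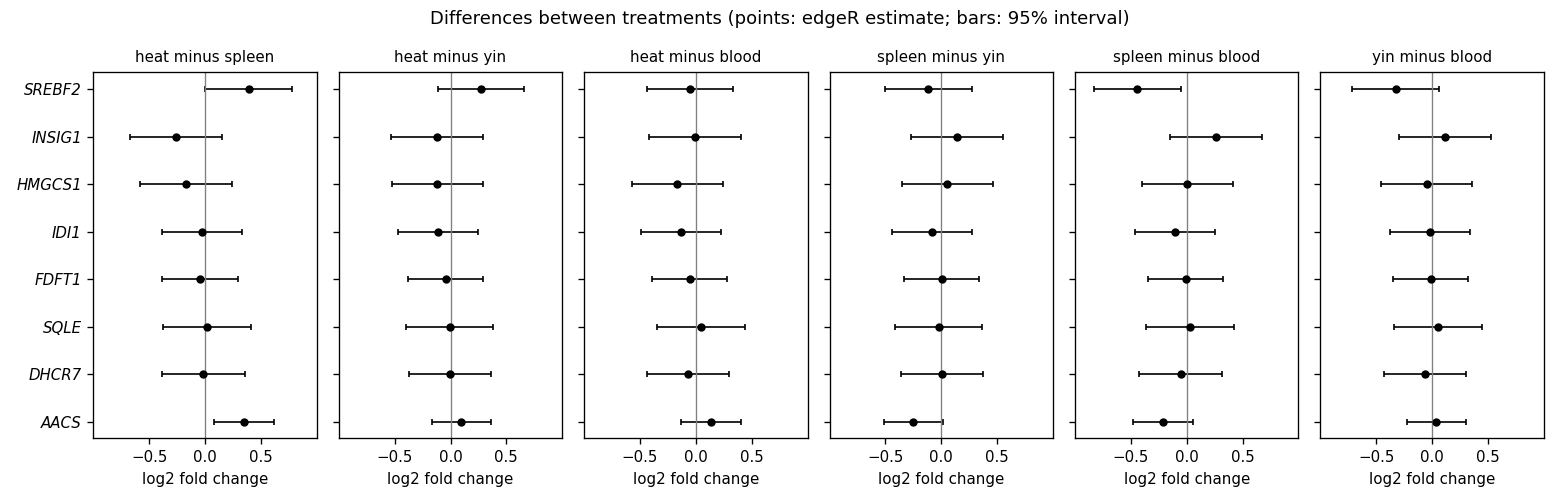
Log2 fold change (x axis) of each of the 8 genes (y axis) in the 6 pairs of treatments, 1 panel per pair; points are edgeR estimates over 20 libraries and bars are 95% intervals. For the 5 enzymes the intervals include 0 in all 6 panels, while those of SREBF2 exclude it in heat-clearing minus spleen-strengthening and spleen-strengthening minus blood-activating and that of AACS in heat-clearing minus spleen-strengthening, before adjustment over all genes.

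The wider pathway was read from lists chosen by symbol, which count the 8 genes where they belong. HMGCS1, IDI1, FDFT1, SQLE and DHCR7 are among the cholesterol synthesis genes, and SREBF2, INSIG1 and AACS among the other SREBP2 targets. SREBF2 and INSIG1 are also among the control genes, and AACS is in the list of ketone-body use. None of the 21 cholesterol synthesis genes passed the 4-treatment test by edgeR. Of them 5 had an unadjusted p under 0.05 in this test, beside 15.4% of all genes. MVD, which decarboxylates the mevalonate product, had the smallest p, with 11.2 ± 8.50, 4.36 ± 1.21, 5.30 ± 1.43 and 11.3 ± 5.53 CPM (SD, n = 5) in the heat-clearing, spleen-strengthening, yin-nourishing and blood-activating groups (adjusted p = 0.182 by edgeR). LSS, which closes the first sterol ring system, and TM7SF2, a sterol reductase, came next with adjusted p-values of 0.199 and 0.251. The same count was 0 of 9 for other SREBP2 targets, 0 of 19 for the genes that control SREBP processing, 0 of 15 for fatty acid synthesis and 0 of 10 tested LXR targets. It was 0 of 16 for cholesterol uptake, transport and storage, 0 of 15 for the isoprenoid branches and 0 of 7 tested genes of ketone-body use.

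In those lists the genes with the smallest p followed the same groups. NR1H2, the gene of the sterol-sensing receptor LXR beta, had an adjusted p of 0.172 by edgeR, with means of 39.0 ± 11.6 and 41.3 ± 10.7 CPM in heat-clearing and blood-activating and 24.3 ± 2.74 and 27.1 ± 4.90 CPM in spleen-strengthening and yin-nourishing libraries (SD, n = 5). MBTPS1, the protease that makes the first cut in SREBP, had the opposite order, with 112 ± 19.0 and 102 ± 7.92 CPM in the first pair of groups and 128 ± 3.34 and 131 ± 6.40 CPM in the second (adjusted p = 0.172 by edgeR). SOAT1, which esterifies cholesterol for storage, had an adjusted p of 0.220 by edgeR. The 2 groups that hold the RN7SK-high libraries were thus higher for NR1H2 and lower for MBTPS1 in their means.

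Across libraries, the RN7SK-high ones stood apart for 2 of the 8 genes, a count near the 20.2% of all genes called by the same edgeR test. This comparison, and the one by title letter further on, were chosen after the values were seen. With treatment in the fit, SREBF2 was 0.53 log2 higher in the 5 RN7SK-high libraries (SE 0.150, 95% interval 0.21 to 0.84, adjusted p = 0.0136 by edgeR), with 132 ± 14.8 CPM (SD, n = 5) against 89.0 ± 16.2 CPM (SD, n = 15) in the others. Its RN7SK-high libraries were above the rest within heat-clearing (132 to 150.4 against 61.2 to 106 CPM) and within blood-activating (117 to 143 against 84.2 to 108 CPM). INSIG1 was lower by the same test, at -0.56 log2 (SE 0.162, 95% interval -0.89 to -0.22, adjusted p = 0.0156 by edgeR), with 65.7 ± 14.7 CPM against 93.4 ± 16.6 CPM. Its libraries separated within heat-clearing (60.4 to 75.2 against 79.4 to 102 CPM) and overlapped within blood-activating (45.0 to 83.6 against 77.8 to 134 CPM).

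For the 5 enzymes this difference ran from -0.33 (SQLE) to -0.12 log2 (DHCR7) and for AACS it was 0.03, and none of the 6 passed. The count for the 8 genes was thus 1 higher and 1 lower, beside 10.5% of all genes higher and 9.69% lower, or 20.2% in all. Either call was lost without 1 of some libraries. Without heat-clearing replicate 01 the difference was 0.48 for SREBF2 (adjusted p = 0.0509 by edgeR) and -0.51 for INSIG1 (adjusted p = 0.0661 by edgeR), sizes close to those over all 20. Without blood-activating replicate 06 it was 0.48 for SREBF2 (adjusted p = 0.0511 by edgeR), and without blood-activating replicate 04 the INSIG1 difference was -0.32 with an adjusted p of 0.193. With the title letter in the fit the INSIG1 difference was -0.45 (adjusted p = 0.0873 by edgeR), and with no filter on low counts -0.51 (adjusted p = 0.0790 by edgeR).

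The wider pathway moved in both directions between these libraries. Of the 21 cholesterol synthesis genes, 5 were higher in the RN7SK-high libraries and 4 lower, with a median of -0.19 log2 against 0.01 over all genes. The counts were 4 higher and 6 lower with upper-quartile scaling, and 3 higher and 4 lower without heat-clearing replicate 01. The higher genes were MVK and PMVK, the kinases that phosphorylate mevalonate, at 0.74 and 1.08 log2, MVD at 1.60, LSS at 0.90 and TM7SF2 at 1.01. The lower ones included MSMO1, a sterol demethylating oxidase, at -0.65 log2, LBR, a sterol reductase of the nuclear envelope, at -0.50, and FDPS, which makes farnesyl diphosphate, at -0.42. MVD averaged 16.9 ± 4.50 CPM (SD, n = 5) in the RN7SK-high libraries and 5.08 ± 1.46 CPM (SD, n = 15) in the others. Genes of 1 pathway thus had opposite signs.

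GC content of the longest coding transcript moved with this difference. Over the 21 cholesterol synthesis genes, Spearman's rho between GC content and the log2 difference was 0.81 and Pearson's r 0.82, as a description across genes that share the same 20 libraries. The 5 higher genes had 58.3% to 65.6% GC and the 4 lower ones 37.8% to 55.1%. SREBF2 had 57.9% and INSIG1 46.0%. DHCR7, which did not pass, had 58.3% and a difference of -0.12 log2. Over the 106 pathway-list genes with a coding transcript, rho was 0.57. Other values moved with the same libraries, with 2798 to 3194 CPM of summed epithelial markers in the RN7SK-high libraries against 1961 to 2666 CPM in the others, and 10.6% to 15.6% of counts on mitochondrial messenger RNA against 17.1% to 23.2%. Their part in the differences of SREBF2 and INSIG1 was not tested.

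**Figure D3:**
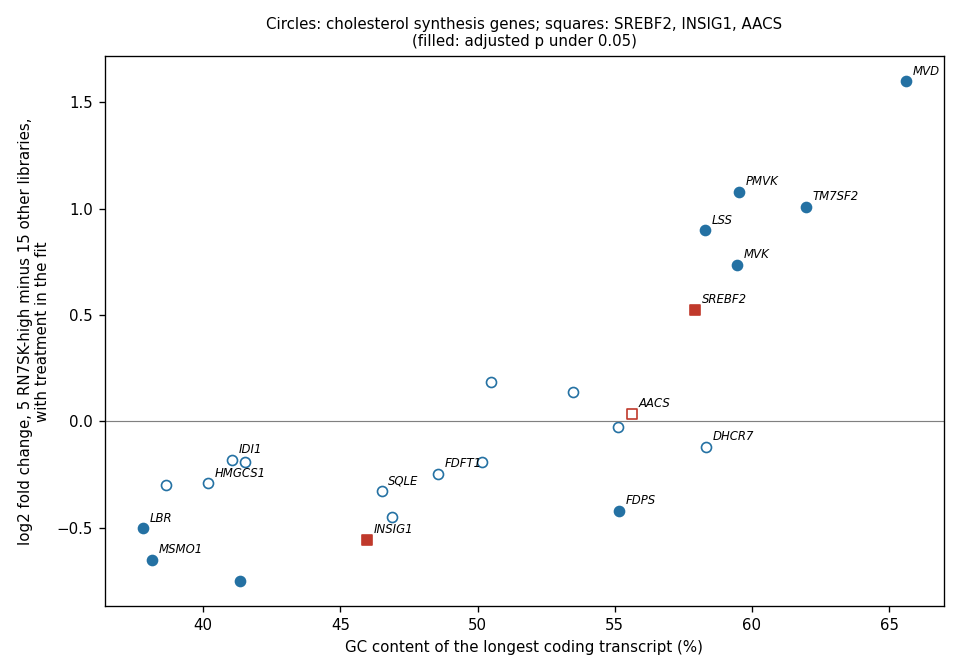
Log2 fold change between the 5 RN7SK-high and 15 other libraries (y axis) against GC content of the longest coding transcript in % (x axis), for the 21 cholesterol synthesis genes (circles) and SREBF2, INSIG1 and AACS (squares); filled symbols passed an adjusted p of 0.05 by edgeR. The 5 cholesterol synthesis genes that passed and were higher lie at 58.3% GC or above. SREBF2 lies at 57.9%, and DHCR7, which did not pass, lies at 58.3% with a log2 fold change of -0.12.

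Over the other 15 libraries, 6 of the 8 genes rose and fell together. Pairwise correlations of log2 CPM were computed for all 28 pairs of the 8 genes, and 19 had an adjusted permutation p under 0.05 for both Pearson's r and Spearman's rho. Among HMGCS1, IDI1, FDFT1, SQLE, DHCR7 and INSIG1, all 15 pairs did, with r from 0.57 to 0.88, rho from 0.61 to 0.94 and adjusted permutation p from 0.00035 to 0.0401 for r. The closest pairs were IDI1 with FDFT1, IDI1 with SQLE and FDFT1 with SQLE, each at r = 0.88. Leaving out the 2 libraries farthest from the median of the first gene gave r from 0.43 to 0.83. The pairs HMGCS1 with INSIG1 and HMGCS1 with DHCR7 then no longer passed (adjusted permutation p = 0.192 for each) and rest on those libraries. Within the 9 libraries of title letter b, r ran from 0.30 to 0.91, and within the 6 of letter C from 0.58 to 0.94. The share of pairs of other genes that pass the same test was not computed. How far these counts exceed it is therefore not known.

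SREBF2 was correlated with 4 of the 5 enzymes over these 15 libraries. Its r was 0.81 with IDI1, 0.79 with DHCR7, 0.74 with SQLE and 0.65 with FDFT1, with adjusted permutation p from 0.00112 to 0.0155. With INSIG1 (r = 0.54, adjusted permutation p = 0.0525) and HMGCS1 (r = 0.50, adjusted permutation p = 0.0772) Pearson's r missed the threshold. Within the 9 libraries of letter b these 6 correlations were lower, at r from 0.29 (FDFT1) to 0.63 (DHCR7), with 0.53 for IDI1 and 0.39 for SQLE, and within the 6 of letter C they ran from 0.62 to 0.87. Over all 20 libraries the same 6 correlations of SREBF2 ran from -0.23 to 0.48 and none passed, while the 15 pairs without it kept r from 0.63 to 0.91. AACS followed none of the other 7 over the 15 libraries, with r from -0.20 to 0.44 and adjusted permutation p of 0.128 or more. Over all 20 its r with SREBF2 was 0.50 (adjusted permutation p = 0.0412). Libraries of a treatment share that treatment, and no treatment has enough libraries for a correlation of its own.

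**Figure D4:**
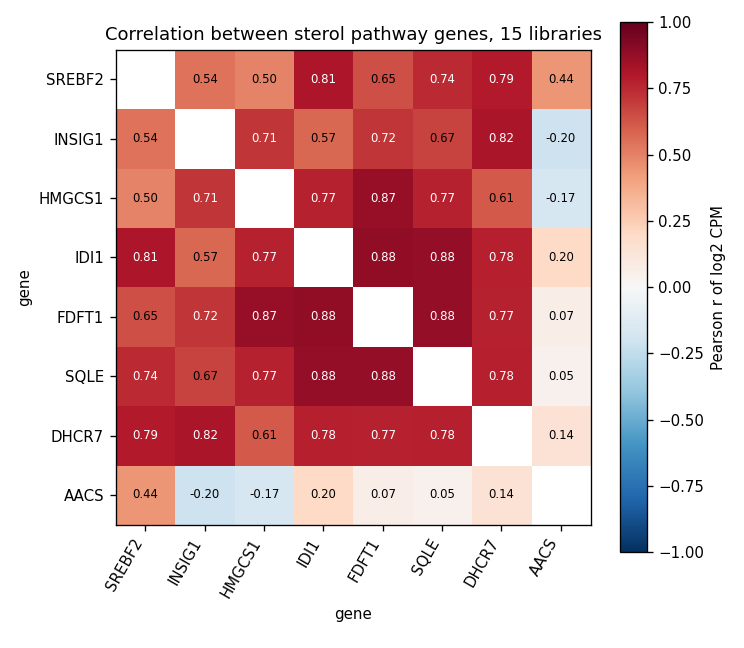
Pearson's r of log2 CPM between each 2 of the 8 genes over the 15 libraries that are not RN7SK-high (colour and printed value; both axes list the genes). The block of INSIG1, HMGCS1, IDI1, FDFT1, SQLE and DHCR7 holds values from 0.57 to 0.88, and the AACS row runs from -0.20 to 0.44.

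Over all 20 libraries, the mean over the 8 genes of their centred and scaled log2 CPM was highest in blood-activating replicate 04 (1.51), yin-nourishing replicate 05 (1.25) and blood-activating replicate 09 (0.855, an RN7SK-high library). It was lowest in blood-activating replicate 08 (-1.66, also RN7SK-high), spleen-strengthening replicate 02 (-0.799) and heat-clearing replicate 03 (-0.777). Both ends of the scale thus lie within the blood-activating group.

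**Figure D5:**
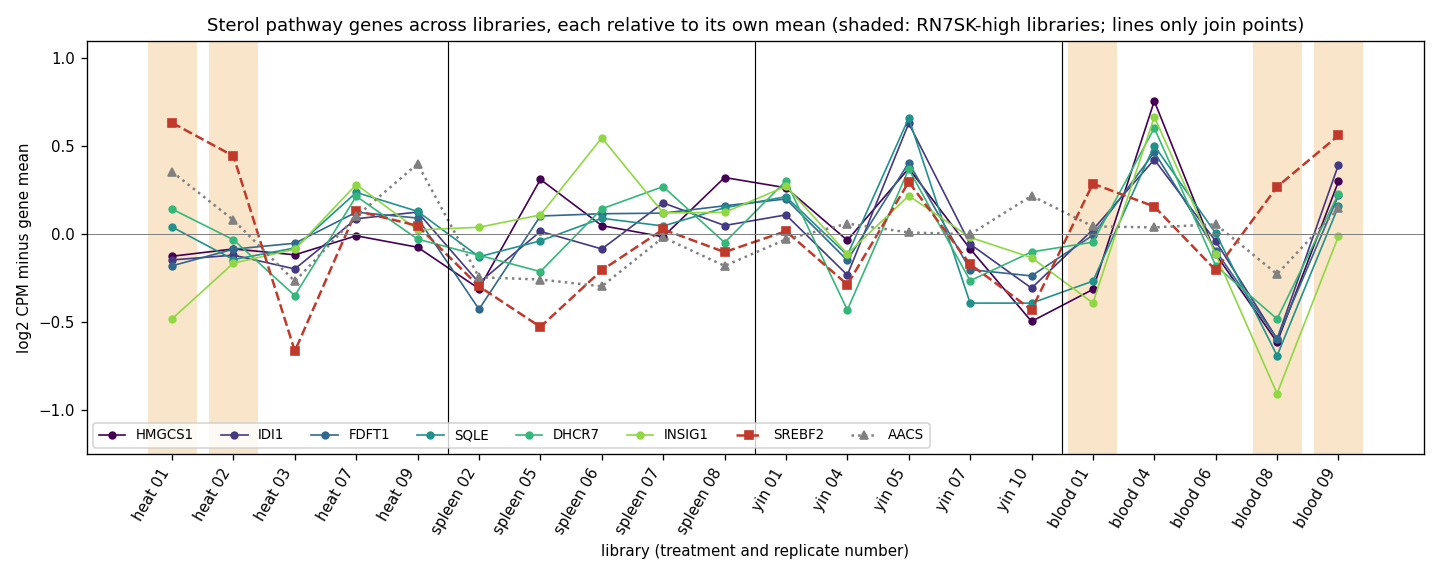
Log2 CPM of each of the 8 genes minus its own mean over 20 libraries (y axis) in every library (x axis, by treatment and replicate); lines join points of 1 gene only to guide the eye, and shading marks the 5 RN7SK-high libraries. The 5 enzymes and INSIG1 all stand above their means in blood-activating replicate 04 and all below them in blood-activating replicate 08, where SREBF2 stands above its mean.

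Of 14120 other genes with a mean log2 CPM of at least 0, those most like this mean over the 20 libraries included FADS2 (r = 0.85), SPAG5 (0.81), SCD (0.81) and BRD8 (0.81). FADS2 and SCD desaturate fatty acids, and SPAG5 is a protein of the mitotic spindle. The least like were UBQLN2 (r = -0.79), RPS3AP47 (-0.77), BACE2 (-0.76), RPL3P4 (-0.75) and MPRIP-AS1 (-0.73), of which RPS3AP47 and RPL3P4 are ribosomal protein pseudogenes. These values are descriptions over 20 libraries that include the RN7SK-high ones. Without those, r was 0.84 for FADS2 and 0.82 for SCD.

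Among the lists, r exceeded 0.5 for 5 of the 16 further cholesterol synthesis genes, 4 of the 6 further SREBP2 targets and 6 of the 15 fatty acid synthesis genes, against 391 of the 14120 genes compared. CYP51A1, the lanosterol demethylase, had r = 0.80, FDPS 0.75 and ACAT2, which joins acetyl-CoA units at the head of the pathway, 0.63. STARD4, a sterol carrier, had r = 0.74 and TMEM97, a sterol-responsive membrane protein, 0.71. FADS1 and ELOVL5, which desaturate and lengthen fatty acids, had 0.62 each. The median r was 0.39, 0.66 and 0.37 in those 3 lists and 0.03 over all genes compared. For the genes that control SREBP processing it was -0.16 and for LXR targets -0.18, and the 0.5 mark was passed by 1 of 17 and 0 of 8 of them. These counts rest on which libraries are used. Without the RN7SK-high libraries, r exceeded 0.5 for 10 of the 16 cholesterol synthesis genes, 5 of the 6 SREBP2 targets and 7 of the 15 fatty acid synthesis genes. The same count was then 5 of 17 for the genes that control SREBP processing and 2 of 8 for LXR targets, against 1557 of all 14120 genes. MVD, LSS and MVK had r of 0.82, 0.74 and 0.70 in those 15 libraries, against 0.25, 0.23 and 0.40 over all 20.

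Titles of the libraries end in b or C, which the sources used here do not explain. The letter C stands on 3 heat-clearing, 1 spleen-strengthening, 1 yin-nourishing and 2 blood-activating libraries, and 4 of the 5 RN7SK-high libraries carry b. With treatment in the fit over all 20 libraries, none of the 8 genes passed by edgeR, beside 0.00403% of all genes. All 8 values were positive (higher in C), and 5 had an unadjusted p under 0.05, namely SQLE (0.36 log2), INSIG1 (0.35), IDI1 (0.33), DHCR7 (0.30) and FDFT1 (0.26), beside 3.44% of all genes with such a p and a higher level in C. The smallest adjusted p of the 8 was 0.548 by edgeR.

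Without the RN7SK-high libraries, 2 of the 8 genes were higher in C, beside 1.41% of all genes higher and 2.5% in either direction. SREBF2 was 0.50 log2 higher (SE 0.109, 95% interval 0.28 to 0.73, adjusted p = 0.0183 by edgeR). IDI1 was 0.44 log2 higher (SE 0.109, 95% interval 0.22 to 0.67, adjusted p = 0.0328 by edgeR). The C libraries of SREBF2 were above the b libraries in each treatment that still held both, at 100.3 and 106 against 61.2 CPM in heat-clearing, 98.9 against 67.4 to 90.4 in spleen-strengthening and 119 against 72.0 to 98.2 in yin-nourishing. IDI1 was ordered the same way, at 119 and 122 against 97.8 CPM, 127 against 92.6 to 116, and 173 against 90.7 to 121. The blood-activating group held 2 C libraries and no b library here, so it adds nothing to the difference.

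For SQLE, DHCR7, FDFT1, AACS, HMGCS1 and INSIG1 the same difference was 0.39, 0.41, 0.26, 0.21, 0.14 and 0.11 log2 and did not pass. Each of the 2 calls depends on single libraries. For SREBF2 the adjusted p by edgeR was 0.154 without heat-clearing replicate 03, 0.129 without yin-nourishing replicate 05 and 0.0716 without spleen-strengthening replicate 07, and the difference stayed between 0.40 and 0.62 log2. For IDI1 the call was lost in 7 of 15 such fits, and without yin-nourishing replicate 05 the difference was 0.27 log2 with an adjusted p of 0.457.

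In the same fit, 17 of the 21 cholesterol synthesis genes had a positive difference, with a median of 0.19 log2. So had 9 of 9 genes in the list of other SREBP2 targets (median 0.21) and 12 of 15 fatty acid synthesis genes (median 0.18), against a median of -0.02 over 28334 genes. The first list counts HMGCS1, IDI1, FDFT1, SQLE and DHCR7 again, and the second SREBF2, INSIG1 and AACS, all of them positive. These 2 counts are thus not separate from the 8 genes. Positive values were 11 of 19 for genes that control SREBP processing (median 0.03). For cholesterol uptake, transport and storage they were 11 of 16 (median 0.10). They were fewer among LXR targets (5 of 11, median -0.19), the isoprenoid branches (5 of 15, median -0.11) and ketone-body use (3 of 8, median -0.09). FASN, the fatty acid synthase, was 0.69 log2 higher in C (adjusted p = 0.00603 by edgeR). Of the 8 epithelial markers all 8 were positive and 3 passed (KRT7, KRT8 and MUC1). Their sums were 1983 to 2666 CPM in C, blood-activating libraries included, and 1961 to 2382 CPM in b. In the 3 treatments that held both letters, the C sums were 2416 to 2666 CPM, above every b library. Of the 13 mitochondrial messenger RNAs 12 were negative and 3 passed (MT-ATP6, MT-ATP8 and MT-CO2). Within each of the 3 treatments the C libraries also had the larger RN7SK share, at 2.05% and 2.28% against 1.78% in heat-clearing, 3.02% against 1.57% to 2.11% in spleen-strengthening and 2.20% against 1.81% to 2.19% in yin-nourishing. Of the markers of other cells, 0 of 15 acinar, 1 of 9 fibroblast, 1 of 6 endothelial, 0 of 4 adipocyte, 2 of 5 myeloid and 3 of 5 hepatocyte genes had a positive difference, and none passed. Their summed levels overlapped between the letters. Acinar sums were 2.32 to 913 CPM in C and 0.968 to 1044 in b. Fibroblast sums were 27.4 to 55.1 and 31.4 to 71.9, endothelial sums 10.3 to 15.5 and 10.6 to 24.1, and adipocyte sums 0.0363 to 7.77 and 0 to 1.38. The acinar and adipocyte maxima in C came from the blood-activating group, which adds nothing to the difference. In heat-clearing, acinar sums were 2.32 and 3.38 CPM in C against 377 CPM in b. They were 3.77 against 0.968 to 72.5 CPM in spleen-strengthening, and 3.67 against 1.68 to 1044 CPM in yin-nourishing. Myeloid sums were 52.0 to 68.3 CPM in C and 51.1 to 66.2 in b, and hepatocyte sums 11.3 to 17.5 and 8.13 to 21.9. The part of these values in the differences of SREBF2 and IDI1 was not tested.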

How the data were processed

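RNA was measured by sequencing in 20 samples of SW1990. Per the labels' protocols, TRIzol was used on total RNA, ribosomal RNA was then depleted and strand-keeping libraries were made. The submitters' processing notes name HISAT2, StringTie and hg38. The sources used here give no versions, annotation, filters or strand setting, and do not say whether mouse reads were set aside. The authors deposited raw counts, as whole numbers for each gene in each sample. Duplicate symbols, on 1047 rows, were kept as separate rows.

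Samples were grouped by labelled treatment, 5 per group. The sources do not say whether replicates are animals, tumours or cultures, so p-values measure only the spread between these samples. No 2 libraries held identical counts, and the highest correlation between any 2 was 0.960. Depth was 81.7 to 135 M counts per library. The tests were run in R 4.3.3 by edgeR 4.0.16, using TMM scaling, the default filter at a minimum count of 10, robust quasi-likelihood F-tests and all 20 samples in 1 fit, checked first on simulated data. Adjustment followed Benjamini and Hochberg over all tested genes of a comparison, at a threshold of 0.05. The fits without the RN7SK-high libraries filtered those 15 libraries anew.

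The 8 genes, the gene lists and the tests were chosen with earlier results of these data known. The RN7SK-high libraries, with over 4% of counts on RN7SK, were set by that knowledge too. Correlations used log2 CPM (prior count 2) and two-sided permutation tests with 100000 resamples, adjusted over 28 pairs. Of each further list, the text names genes past the threshold or, where none passed, up to 3 with the smallest p in the 4-treatment test. For likeness it names the 5 genes with the highest and the 5 with the lowest r (some genes these rules name are not reported here), and further list genes were named after their values were seen. Promoters came from RefSeq, and positions, lengths and GC content from GENCODE 29. Alternatives were other scalings and filters, DESeq2 1.42.0, limma 3.58.1 (voom with quality weights), the title letter, a replicate block, each pair fitted alone, and leaving out libraries.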

Additional observations from a re-analysis of the deposited data

Results flagged for a closer look

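The 8 genes in 4 treatment groups gave 32 groups of 5 libraries, and 2 held a library whose distance from its nearest neighbour exceeded Dixon's 95% critical value of 0.71 of the group's range. Chance alone marks about 1 group in 20. INSIG1 in spleen-strengthening replicate 06 stood at 123.1 CPM, where the next library of its group had 91.8 CPM and the gap was 0.858 of the range. In that library HMGCS1 and SQLE, at 52.5 and 155 CPM, were inside the range of their group. FDFT1 in spleen-strengthening replicate 02 stood at 71.98 CPM, where the next library had 103.9 CPM and the gap was 0.882 of the range. The same library was also the lowest of its group for HMGCS1 (40.9 CPM), SQLE (133 CPM), INSIG1 (86.6 CPM) and IDI1 (92.6 CPM).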

How the results depend on the processing

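No value of the 8 genes changed its direction and kept or gained a call. In the 4-treatment test all 240 values under the alternatives stayed above the threshold (adjusted p 0.0924 or more). Of 1488 pair values, 1 passed, SREBF2 in spleen-strengthening minus blood-activating by limma voom (-0.53, adjusted p = 0.0259), and 174 uncalled values changed sign. For the RN7SK-high difference, 8 of 224 values lost a call: those given in the report and, with the replicate block, SREBF2 (0.41, adjusted p = 0.336) and INSIG1 (-0.49, adjusted p = 0.391).

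Counts over all genes moved more. The 4-treatment test called 0 genes in the edgeR fit reported, 1259 by DESeq2, 2099 by limma voom, 1 with the replicate block and 1 without the RN7SK-high libraries. Heat-clearing minus spleen-strengthening called 2, then 0 with RLE or upper-quartile scaling, no filter, a term for or no RN7SK-high libraries, or each pair alone, 1 with the strict filter (1 CPM in 5 libraries) or the title letter, and 67 by DESeq2. The other pairs called 0, and by DESeq2 32 (heat-clearing minus yin-nourishing), 10 (heat-clearing minus blood-activating), 30 (spleen-strengthening minus yin-nourishing), 1933 (spleen-strengthening minus blood-activating) and 1055 (yin-nourishing minus blood-activating). By limma voom the last 3 were 1, 4910 and 4172. Spleen-strengthening minus blood-activating called 2 with no filter, with the replicate block or alone, and 3 without RN7SK-high libraries. The block gave 1 for heat-clearing minus blood-activating and 1 for yin-nourishing minus blood-activating.

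The RN7SK-high count of 5013 became 1321 with the block, and the 5 higher and 4 lower cholesterol synthesis genes became 2 and 2. The letter count of 1 became 12 with no filter, 0 with the strict filter, 0 with the block, 180 with a term for RN7SK-high libraries, 709 without them, 124 by DESeq2 and 10 by limma voom. With upper-quartile scaling the RN7SK-high split was 2279 higher and 2947 lower, against 2612 and 2401.

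Leaving out 1 library gave 0 to 378 genes in the 4-treatment test, 0 to 2 for heat-clearing minus spleen-strengthening, 0 to 2002 for spleen-strengthening minus blood-activating, 0 to 1 for spleen-strengthening minus yin-nourishing, 0 to 361 for yin-nourishing minus blood-activating and 0 to 70 for the letter. The causes were not tested, except that fits on fewer libraries hold fewer samples.

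Replicate numbers shared across treatments did not pair the samples. Deviations of 12 same-numbered pairs correlated at -0.05 to 0.17, 1 of them over 0.1, and 2 of 18 libraries correlated best with their own number.

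Among correlations, 16 of 28 passed over all 20 libraries and 17 without the 2 farthest, against 19. Depth did not limit these genes, since each had at least 1120 counts in every library.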
